A study of Mus musculus with 14 samples.

Results

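Hnrnph1, Hnrnpab, Clk4, Sart3, Utp6 and Nhp2 are 6 of the 472 rows in the gene panel of these samples, and they were taken by name as genes of pre-mRNA processing and of ribosome assembly. All 6 were found in the table of every clone, and all 6 passed the filter of at least 10 reads per clone on average. They were measured in 14 clones of F1 2-1, a female embryonic stem cell line of a 129 by Castaneus (CAST) mouse hybrid, in which strain-specific bases assign a read to the 129 or the CAST copy of a gene. RNA with a poly(A) tail was captured with probes for the panel genes (hybrid selection) and sequenced, so a level describes a gene within the panel. The clones carried a deletion of 1 of 2 enhancers, named Chen2008-1 and Chen2008-25, and the study's question was which genes respond on the modified chromosome and which on both.

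The Chen2008-1 set had 8 clones, all heterozygous: 6 were recorded as +/- (B8, D3, E3, E7, G3 and H7) and 2 as -/+ (D10 and D2). In the Chen2008-25 set of 6 clones, 5 were recorded as KO -/- (B4, C4, G2, H2 and H4) and 1 as -/+ (E6). The order of the signs was read as 129 before CAST, which the genotype table does not state, so -/+ was taken as deleted on the 129 chromosome. All groups shared the parental line, the hybrid selection batch, the probe set and a serum-free medium with LIF, the MEK inhibitor PD0325901 and the GSK3 inhibitor CHIR99021. The column headers carry a number that is the same in all clones of a set and differs between the sets. Its meaning is not stated, and whatever it marks cannot be told apart from the clone set. A clone with neither deletion was not among the samples, each set therefore served as the reference of the other, and the enhancer cannot be told apart from other properties of the clone set. A p-value here measures the spread between clones of 1 parental line, and the -/+ group of Chen2008-25 was a single clone.

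Heterogeneous nuclear ribonucleoproteins (hnRNPs) coat nascent transcripts and influence which exons are joined, while CLK kinases phosphorylate the serine- and arginine-rich splicing factors and so control their availability to the spliceosome. Each round of splicing releases small nuclear ribonucleoproteins that have to be reassembled before reuse. In the nucleolus, the small-subunit processome folds and cleaves the precursor of ribosomal RNA, and small nucleolar particles guide its chemical modification. Embryonic stem cells divide fast and are known for a high output of ribosomes and of spliced messages.

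Depth ran from 135881 allelic reads in clone D10 to 1331965 in clone D3, and the Chen2008-25 clones lay between 239430 and 891466. Small counts (1 to 19) were even in 79.1% to 88.6% of cases per clone, as when both mates of a fragment are counted, and reads are therefore not independent molecules. None of the 15 pluripotency markers, 12 early differentiation markers or 8 feeder fibroblast markers listed for a check of the cell type was in the panel, so the labelled cell type was not checked here. Levels below are in CPM, the reads of a gene relative to all allelic reads of the clone after TMM scaling of library sizes.

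In the mouse annotation 5 of the 6 genes lie on chromosome 11 and Sart3 lies on chromosome 5. Hnrnpab runs on the minus strand and shares 809 exonic bases, or 29.1% of its exonic length, with Phykpl, which is in the panel under the older symbol Agxt2l2 and runs on the opposite strand. Nhp2 shares 44 exonic bases with Rmnd5b on the opposite strand, 3.84% of its exonic length. No source used here states whether counting took account of strand, and without strand the reads of such shared stretches cannot be told apart. Clk4 overlaps BC049762 on the opposite strand with 0 shared exonic bases. It shares 59 exonic bases, 1.02% of its exonic length, with Gm25082, which runs on the same strand and is not in the panel.

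The RefSeq promoter table (GRCm38.p6) held 4 of the 6 genes, and their upstream sequences are shown because Hnrnph1 and Clk4 differed between the clone sets while Hnrnpab and Nhp2, further along the same chromosome, did not pass that test. Each window covers the 250 bases before a transcription start, 5′ to 3′ on the strand of the gene. For Hnrnph1, with 5 windows in the table, the window at the start of a principal GENCODE transcript is given (chr11:50376740-50376989, plus strand). That of Hnrnpab is chr11:51606882-51607131 on the minus strand. For Clk4 (chr11:51263047-51263113, plus strand) and Nhp2 (chr11:51619523-51619734, plus strand) the stretch outside annotated exons is printed. Capitals mark matches on either strand to the E-box (letters CACGTG), the CCAAT box (letters as in its name), the GC box (letters GGGCGG), the TATA box (letters TATAAA) or the core of ETS family sites (letters CCGGAAG).
Hnrnph1: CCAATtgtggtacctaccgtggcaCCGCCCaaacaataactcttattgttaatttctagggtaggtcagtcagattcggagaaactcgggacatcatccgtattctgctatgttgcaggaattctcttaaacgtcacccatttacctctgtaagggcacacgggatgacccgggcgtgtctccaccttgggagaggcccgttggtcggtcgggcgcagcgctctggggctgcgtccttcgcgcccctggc
Clk4: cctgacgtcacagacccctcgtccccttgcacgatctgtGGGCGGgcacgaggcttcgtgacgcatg
Hnrnpab: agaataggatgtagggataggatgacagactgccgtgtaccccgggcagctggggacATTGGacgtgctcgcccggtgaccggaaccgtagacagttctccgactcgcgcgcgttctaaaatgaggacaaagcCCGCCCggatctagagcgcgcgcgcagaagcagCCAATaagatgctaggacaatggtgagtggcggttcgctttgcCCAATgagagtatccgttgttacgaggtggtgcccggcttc
Nhp2: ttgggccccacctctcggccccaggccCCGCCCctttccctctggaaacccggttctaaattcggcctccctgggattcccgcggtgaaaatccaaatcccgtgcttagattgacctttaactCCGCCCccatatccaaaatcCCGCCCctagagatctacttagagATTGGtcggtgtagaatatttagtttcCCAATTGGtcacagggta

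All 4 windows given held a GC box, which 32.7% of 32851 mouse promoter windows of the same length hold. For Hnrnph1 the matches depended on the window chosen. The window at chr11:50377428-50377677 held 0 GC boxes and 1 CCAAT box, and that at chr11:50377986-50378235 held 2 GC boxes and 0 CCAAT boxes. A CCAAT box was found in the windows of Hnrnph1 (1 match), Hnrnpab (3 matches) and Nhp2 (3 matches, of which 2 overlap on opposite strands), against 33.8% of all windows, and 0 matches were found in that of Clk4. Nhp2 also had 1 ETS match, in the part that is not printed, against 6.91% of all windows. An E-box (6.02% of all windows) and a TATA box (12.4%) were found in none of the 4. Windows held 17 CpG dinucleotides in Hnrnph1, 25 in Clk4, 23 in Hnrnpab and 13 in Nhp2, where the median of all windows was 6. A match is a description of letters, and in the windows given the genes that differed between the clone sets and those that did not shared the GC box.

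Hnrnph1, Clk4 and Utp6 had higher summed levels in all Chen2008-25 clones than in any Chen2008-1 clone, while Hnrnpab and Nhp2 did not pass the test and Sart3 was lower by a small amount near the threshold. Of the 6 genes, 3 were higher and 1 was lower in Chen2008-25, where edgeR's quasi-likelihood test called 63.8% of the 448 genes tested (29.5% higher and 34.4% lower). The share called among the 6 genes was close to that background, and no statement about the group as a whole follows from the count. The median log2 difference was 0.26 over the 6 genes and -0.0065 over all genes tested. Clone sets did not overlap in total CPM for 3 of the 6 genes, and for 31.7% of all genes tested.

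**Figure D1:**
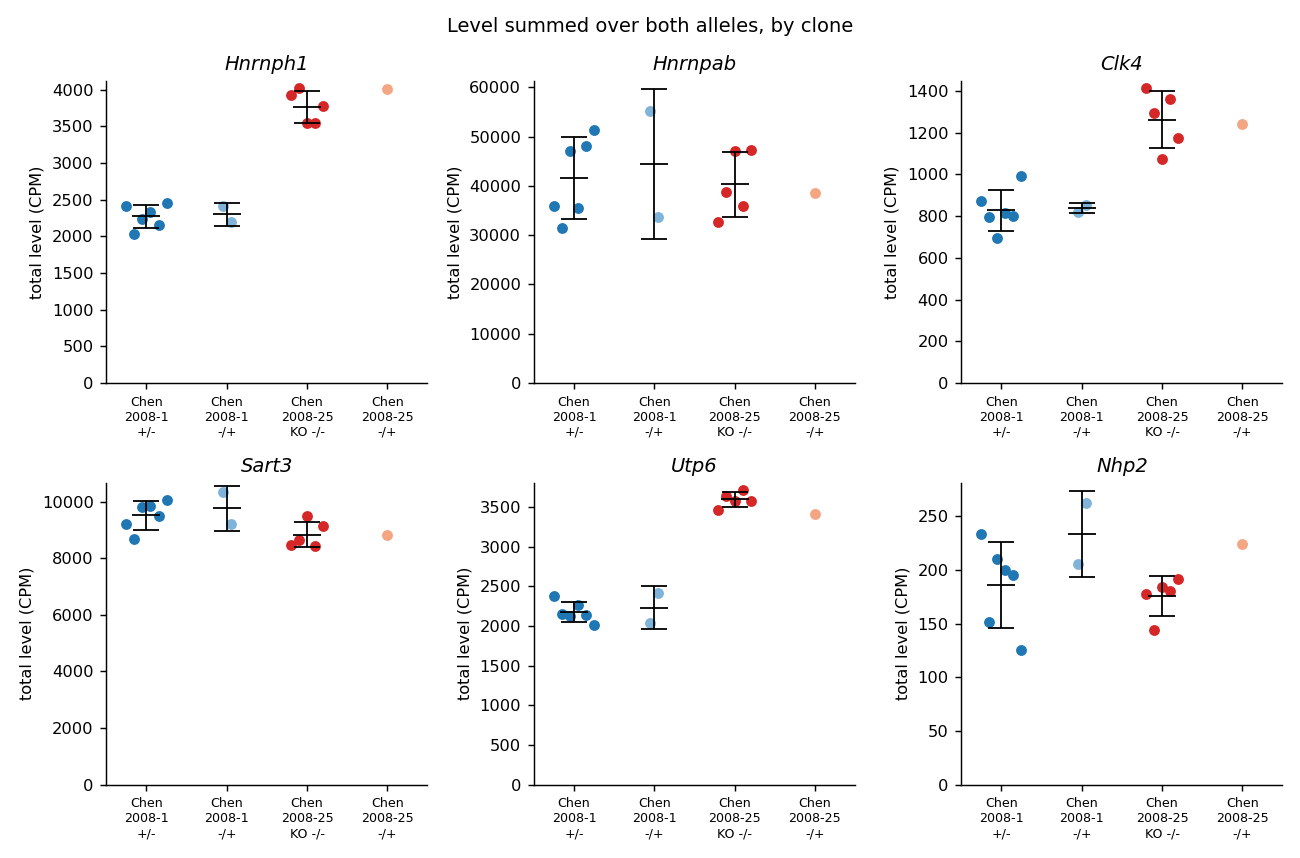
Level of each gene summed over both alleles, in CPM on a linear axis from 0, with 1 point per clone and with black bars for the mean and SD of each genotype group. The Chen2008-25 clones sit above every Chen2008-1 clone for Hnrnph1, Clk4 and Utp6, and the sets overlap for Hnrnpab, Sart3 and Nhp2.

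Hnrnph1 encodes hnRNP H, which binds runs of guanines in pre-mRNA and regulates alternative splicing. Its total level in the Chen2008-1 clones was 2032 CPM at the lowest (D3), 2285 CPM at the median and 2453 CPM at the highest (H7). In the KO clones it was 3927 (B4), 4020 (C4), 3541 (G2), 3547 (H2) and 3780 CPM (H4), and in the -/+ clone E6 it was 4014 CPM. The lowest Chen2008-25 clone thus lay above the highest Chen2008-1 clone, with set means of 3805 ± 220 CPM (SD, n = 6) and 2279 ± 148 CPM (SD, n = 8). Hnrnph1 was 1.67-fold higher in Chen2008-25 (95% interval 1.55 to 1.81, log2 difference 0.74, SE 0.054, edgeR adjusted p = 3.38e-09), the gene of rank 5 by p among the 448 tested.

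Both copies of Hnrnph1 carried the difference to a similar size. Its 129 copy ran from 958 to 1273 CPM (median 1122) in Chen2008-1 and from 1661 to 2029 CPM (median 1918) in Chen2008-25. The CAST copy ran from 1074 to 1211 CPM (median 1172) and from 1751 to 2055 CPM (median 1936). Neither copy overlapped between the sets, and the log2 differences were 0.75 (SE 0.069) for 129 and 0.74 (SE 0.054) for CAST, with edgeR adjusted p = 3.57e-08 and 3.09e-09. The 129 share, the percentage of allelic reads from the 129 copy, had a median of 49.2% in Chen2008-1 and 49.8% in Chen2008-25. The 129 over CAST ratio did not differ by the test (log2 difference 0.011, 95% interval -0.10 to 0.13, edgeR adjusted p = 0.973).

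Hnrnpab encodes an hnRNP of the A/B type, an RNA-binding protein that also takes part in the handling of mature messages. Total levels ran from 31428 CPM in D3 to 55252 CPM in D10 in Chen2008-1, with a median of 41520, and from 32597 CPM in B4 to 47225 CPM in H4 in Chen2008-25, with a median of 38676. The sets overlapped almost throughout, and the spread within Chen2008-1 was wide (coefficient of variation 21.7%, against 6.50% for Hnrnph1). The difference did not pass the test (log2 -0.080, 95% interval -0.35 to 0.19, edgeR adjusted p = 0.599). The 129 share was the steadiest of the 6 genes within each set, between 48.3% and 49.6% in Chen2008-1 and between 47.7% and 48.8% in Chen2008-25. CAST reads were in slight excess in all 14 clones.

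Clk4, a kinase that phosphorylates serine- and arginine-rich splicing factors, had total levels from 697 CPM (E3) to 991 CPM (H7) in Chen2008-1, with a median of 818. In the KO clones it was at 1413 (B4), 1296 (C4), 1073 (G2), 1360 (H2) and 1177 CPM (H4), and in E6 at 1242 CPM. The lowest of these values, that of G2, lay above that of H7, so the sets did not overlap. Clk4 was 1.52-fold higher in Chen2008-25 (95% interval 1.36 to 1.71, log2 difference 0.61, SE 0.078, edgeR adjusted p = 2.29e-06).

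The copies of Clk4 were unequal in every clone and moved by different amounts between the sets. The 129 copy gave 490 to 665 CPM (median 529) in Chen2008-1 and 592 to 887 CPM (median 753) in Chen2008-25, and the sets overlapped. The CAST copy gave 190 to 340 CPM (median 288) and 446 to 556 CPM (median 509), without overlap. By edgeR the log2 difference was 0.49 for 129 (SE 0.090, adjusted p = 1.28e-04) and 0.83 for CAST (SE 0.11, adjusted p = 3.80e-06). The 129 share ran from 59.6% (D10) to 72.7% (E3) in Chen2008-1 and from 55.2% (G2) to 63.4% (H2) in Chen2008-25, so the ranges overlapped. The ratio of 129 to CAST was lower in Chen2008-25 by a log2 difference of -0.34 (SE 0.11), which missed the threshold at edgeR adjusted p = 0.0507, and it passed when any of clones B8, D10, B4 or H2 was left out (adjusted p from 0.0267 to 0.0485).

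Sart3 encodes a factor that helps to reassemble spliceosomal small nuclear ribonucleoproteins after each round of splicing. Its total level in Chen2008-1 was 8681 CPM at the lowest (D3), 9647 CPM at the median and 10320 CPM at the highest (D10), and in Chen2008-25 it was 8440 CPM at the lowest (H2), 8733 CPM at the median and 9477 CPM at the highest (G2). These ranges overlapped. The log2 difference was -0.12 (95% interval -0.22 to -0.015, SE 0.048, edgeR adjusted p = 0.0423). This call was lost with DESeq2 (adjusted p = 0.131) and in 11 of the 14 fits that each left out 1 clone.

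For Sart3 the alleles differed. The CAST copy fell by 0.19 on the log2 scale (SE 0.054, edgeR adjusted p = 0.00617), from a median of 4608 CPM (4153 to 4990) in Chen2008-1 to 3972 CPM (3861 to 4314) in Chen2008-25. Its 129 copy had medians of 4996 CPM and 4810 CPM, with a log2 difference of -0.053 (95% interval -0.16 to 0.058, edgeR adjusted p = 0.421). The 129 share was between 50.4% (H7) and 52.8% (D10) in Chen2008-1 and between 53.1% (H2) and 56.3% (E6) in Chen2008-25. Every Chen2008-25 clone was above every Chen2008-1 clone in this share, which was the case, in either direction, for 3.75% of the 427 genes with a share in every clone. The ratio of 129 to CAST was higher in Chen2008-25 by 0.13 (log2, SE 0.036, edgeR adjusted p = 0.0198). Without E6 the difference was 0.11 and did not pass (adjusted p = 0.0580), nor did it pass with limma on the log2 ratio (0.13, adjusted p = 0.0776).

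Utp6 encodes a subunit of the small-subunit processome, which folds and cleaves the precursor of ribosomal RNA. Total levels in Chen2008-1 were 2010 CPM at the lowest (H7), 2140 CPM at the median and 2418 CPM at the highest (D2). The KO clones were at 3461 (B4), 3636 (C4), 3575 (G2), 3716 (H2) and 3579 CPM (H4), and E6 was at 3411 CPM. All 6 Chen2008-25 clones were above all 8 Chen2008-1 clones, and they lay close together (coefficient of variation 3.14%). Utp6 was 1.62-fold higher in Chen2008-25 (95% interval 1.51 to 1.75, log2 difference 0.70, SE 0.051, edgeR adjusted p = 3.38e-09).

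As for Hnrnph1, both copies of Utp6 differed. The 129 copy had a median of 1089 CPM in Chen2008-1 (1003 to 1276) and of 1801 CPM in Chen2008-25 (1727 to 1897). The CAST copy had medians of 1099 CPM (932 to 1144) and 1764 CPM (1625 to 1852). Ranges were separate for both copies, with log2 differences of 0.70 (SE 0.063, edgeR adjusted p = 2.85e-08) for 129 and 0.69 (SE 0.057, edgeR adjusted p = 1.30e-08) for CAST. The ratio of the copies did not pass the test (log2 difference 0.013, 95% interval -0.11 to 0.14, edgeR adjusted p = 0.984).

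Nhp2 encodes a core protein of the H/ACA particles that guide pseudouridine formation in ribosomal RNA, and it is also found in telomerase. It was covered by 26 reads in D10 and by 308 in D2, the fewest and the most of any clone. Total levels ran from 126 CPM (H7) to 262 CPM (D2) in Chen2008-1, with a median of 203, and from 144 CPM (C4) to 224 CPM (E6) in Chen2008-25, with a median of 182. The ranges of both sets overlapped, and the difference did not pass the test (log2 -0.12, 95% interval -0.45 to 0.20, edgeR adjusted p = 0.508). How far read number or spread between clones limited this comparison was not tested. The 129 copy of Nhp2 gave a log2 difference of -0.0026 (SE 0.21) and its CAST copy one of -0.23 (SE 0.20), with edgeR adjusted p = 0.998 and 0.332.

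**Figure D2:**
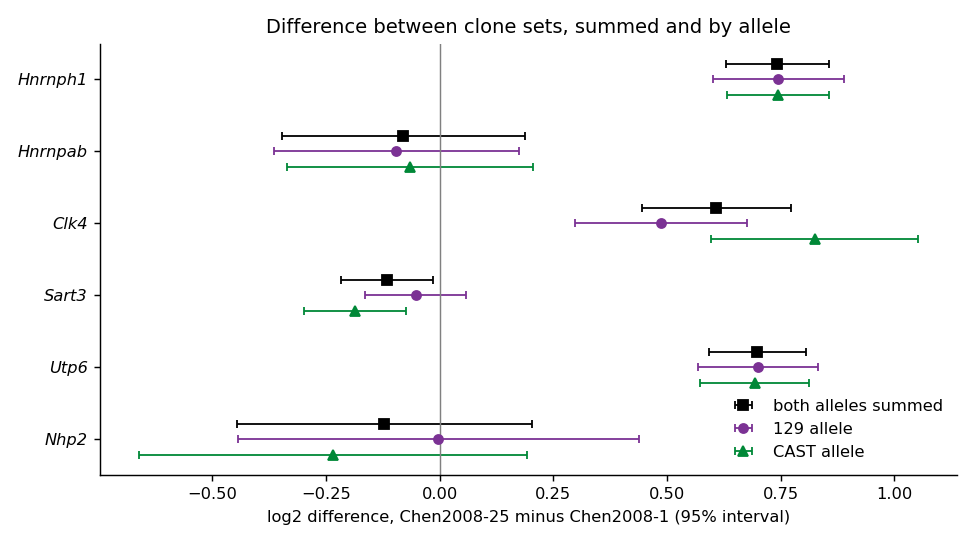
Log2 difference of Chen2008-25 minus Chen2008-1 for each gene, with 95% intervals, for the summed level (squares), the 129 copy (circles) and the CAST copy (triangles). For Hnrnph1 and Utp6 the symbols fall together between 0.69 and 0.75, and for Clk4 the CAST copy (0.83) lies to the right of the 129 copy (0.49).

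Counted by allele, 3 of the 6 genes were higher and 0 lower on the 129 copy, where 56.6% of 412 genes were called (26.2% higher and 30.3% lower), and 3 were higher and 1 lower on the CAST copy, where 59.7% of 395 genes were called (26.6% higher and 33.2% lower). These shares were again near the background. The ranges of the sets were separate for 2 of the 6 genes on 129 and for 3 on CAST. Over the 448 genes that passed the filter on summed reads, the shares were 26.6% and 24.1%. The ratio of the copies differed between the sets for 1 of the 6 genes, Sart3, against 12.1% of 448 genes.

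Within a set, the copies of Hnrnph1 and Utp6 were near equal and those of Clk4 were not. The 129 over CAST ratio of Clk4 was 0.94 on the log2 scale in Chen2008-1 (SE 0.076, edgeR adjusted p = 6.53e-10) and 0.60 in Chen2008-25 (SE 0.082, edgeR adjusted p = 2.32e-06), with more 129 than CAST reads in 14 of 14 clones. Sart3 had a ratio of 0.11 (SE 0.024, edgeR adjusted p = 2.66e-04) and 0.24 (SE 0.028, edgeR adjusted p = 1.33e-07), also with more 129 reads in every clone. Hnrnpab leaned to CAST by -0.064 (SE 0.013, edgeR adjusted p = 2.66e-04) and -0.093 (SE 0.016, edgeR adjusted p = 2.79e-05).

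For Hnrnph1 the ratios were -0.041 in Chen2008-1 and -0.029 in Chen2008-25, and for Utp6 they were 0.033 and 0.046. None of these 4 values passed the test (edgeR adjusted p from 0.338 to 0.540). In Chen2008-1, 3 of the 6 genes departed from equal copies, against 69.6% of 448 genes, and the same number did in Chen2008-25, against 62.7%. No source used here states the rule by which reads were assigned to an allele, and whether mapping favoured 1 genome at these genes was not tested.

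**Figure D3:**
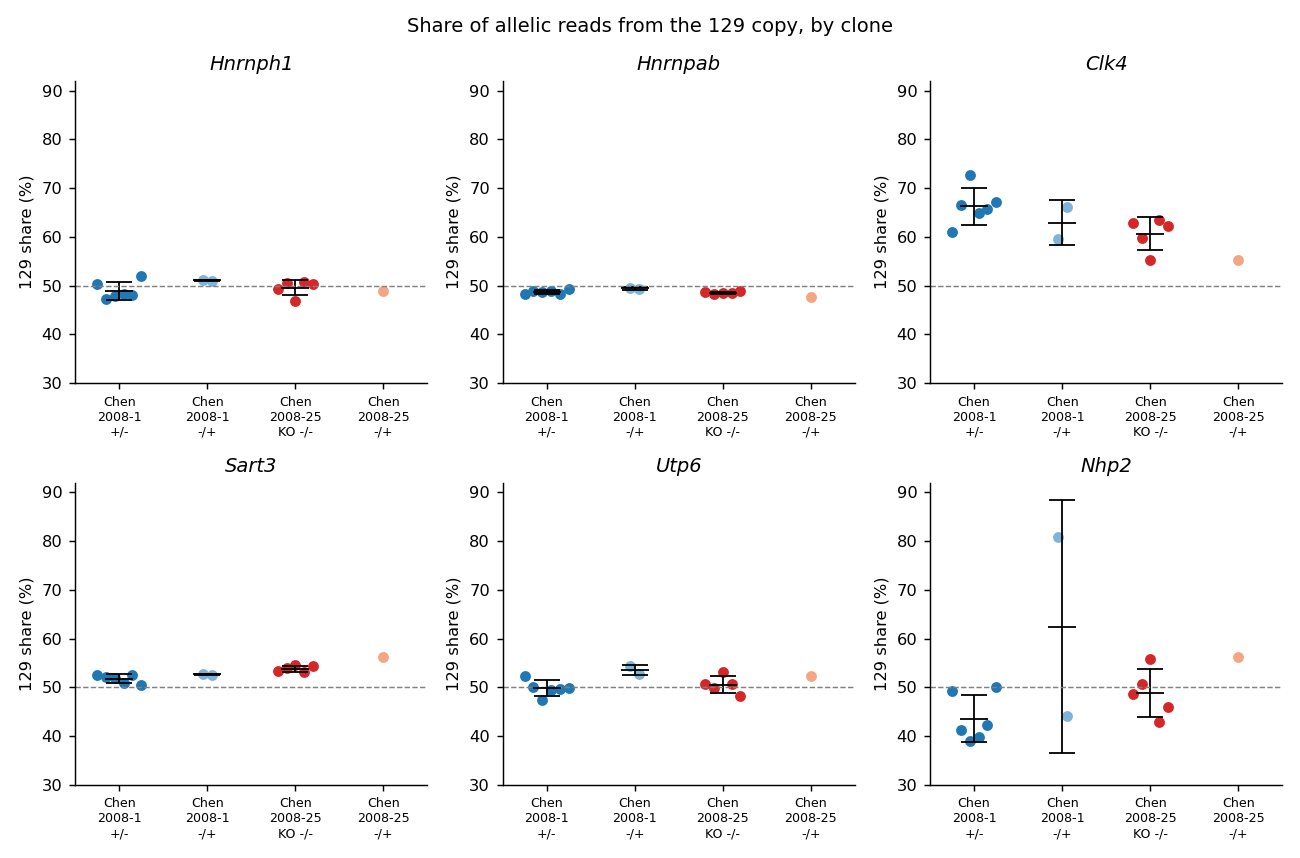
Percentage of allelic reads from the 129 copy in each clone, with the mean and SD of each genotype group and a dashed line at equal copies. Clk4 lies above the line in all clones, Sart3 is higher in every Chen2008-25 clone than in any Chen2008-1 clone, and Nhp2 of clone D10 stands at 80.8% on 26 reads.

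By genotype, the differences of Hnrnph1, Clk4 and Utp6 were as large between the biggest groups alone. KO clones exceeded the Chen2008-1 +/- clones on the log2 scale by 0.73 in Hnrnph1 (SE 0.063, edgeR adjusted p = 1.14e-07), 0.62 in Clk4 (SE 0.092, edgeR adjusted p = 2.75e-05) and 0.72 in Utp6 (SE 0.059, edgeR adjusted p = 8.73e-08). Sart3 did not pass here (-0.11, SE 0.058, edgeR adjusted p = 0.123), nor did Hnrnpab (-0.045, SE 0.15) or Nhp2 (-0.10, SE 0.16). In this comparison 59.4% of the 448 genes were called.

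No difference between genotypes of the same set was called for the 6 genes. For the Chen2008-1 -/+ clones against the +/- clones, edgeR called 0 of 448 genes (0.0%), with 13 at an unadjusted p under 0.05 and 0 by DESeq2, and the log2 differences of Hnrnph1 (0.011, SE 0.088), Clk4 (0.026, SE 0.13), Utp6 (0.047, SE 0.082), Sart3 (0.033, SE 0.079) and Hnrnpab (0.094, SE 0.20) were all smaller than their standard errors. Nhp2 differed by 0.36 (SE 0.22, edgeR adjusted p = 0.998). The -/+ clone E6 against the KO clones of its set gave 0.092 (SE 0.11) in Hnrnph1, -0.033 (SE 0.17) in Clk4, -0.075 (SE 0.11) in Utp6, 0.00038 (SE 0.10) in Sart3, -0.064 (SE 0.27) in Hnrnpab and 0.36 (SE 0.29) in Nhp2, in a comparison that called 0.223% of genes. That contrast rests on 1 clone, which was assumed to vary like the others.

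The ratio of the copies was also compared between -/+ and +/- clones, which were read as deleted on different chromosomes. Within Chen2008-1 it did not pass the test for any of the 6 genes, in a comparison that called 0.893% of the 448 genes. The log2 differences in the ratio ran from -0.079 in Clk4 (SE 0.18) to 0.48 in Nhp2 (SE 0.37), with 0.19 in Utp6 (95% interval -0.013 to 0.39, edgeR adjusted p = 0.994). D10 and D2 had a Utp6 129 share of 54.3% and 52.8%, and the +/- clones had 47.3% to 52.4%.

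Ratios between the genes within a clone do not depend on how library sizes were scaled. Over the 15 pairs, the ratio of reads differed between the sets for 9 by an exact permutation test over 3003 splits of the clones (two-sided, smallest possible p = 0.000333, Benjamini-Hochberg over the pairs). At an unadjusted exact permutation p under 0.05 the count was also 9 of 15, against 63.6% of the 90951 pairs of tested genes with reads in every clone, and the sets did not overlap for 5 of 15 pairs, against 28.8% of those pairs. The member pairs were thus near the background, and the pairs share their genes. The pairs that passed were the 9 ratios of Hnrnph1, Clk4 or Utp6 to Hnrnpab, Sart3 or Nhp2, with exact adjusted p from 0.00125 to 0.0122. Hnrnph1 over Sart3 was 0.86 higher in Chen2008-25 on the log2 scale, from -2.07 ± 0.065 (SD, n = 8) to -1.22 ± 0.12 (SD, n = 6), without overlap. Hnrnph1 over Utp6 differed by 0.035 (0.058 ± 0.15 and 0.093 ± 0.12), which did not pass (exact permutation adjusted p = 0.755). Hnrnph1 over Clk4 differed by 0.14 and Clk4 over Utp6 by -0.10, with exact permutation adjusted p = 0.110 and 0.394.

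Across the clones of a set the 6 genes did not move as 1 group. Of 15 pairs, 7 had a positive Pearson r of log2(CPM + 1) in Chen2008-1 (median r -0.028) and 6 in Chen2008-25 (median r -0.11). None of the 30 relations passed after adjustment (exact permutation test, smallest adjusted p = 0.0833), and 7 had an unadjusted p under 0.05. Hnrnpab and Sart3 rose and fell together in both sets, with r = 0.824 (rho 0.833, exact permutation p = 0.0151 and 0.0154, adjusted 0.125 and 0.250) in Chen2008-1 and r = 0.922 (rho 0.829, exact permutation p = 0.0167 and 0.0583, adjusted 0.125 and 0.250) in Chen2008-25. Leaving out the 2 clones farthest from the median Hnrnpab level gave r = 0.639 and 0.722, and with library totals in place of TMM scaling r was 0.0351 and 0.388.

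Clk4 ran opposite to Sart3 in Chen2008-25 (r = -0.982, rho -0.943, exact permutation p = 0.00278 and 0.0167, adjusted 0.0833 and 0.250), with r = -0.997 without the 2 farthest clones. With library totals r was -0.378, so the size of this r also changed with the scaling. The cause of that change was not tested. In Chen2008-1 the same pair had r = 0.119 (exact permutation p = 0.806). Hnrnph1 and Utp6, which differed most between the sets by p, had r = -0.146 in Chen2008-1 and -0.584 in Chen2008-25 (exact permutation p = 0.727 and 0.231). The remaining relations with an unadjusted p under 0.05 changed less with library totals. Hnrnpab and Clk4 in Chen2008-25 had r = -0.938, and -0.915 with library totals. In Chen2008-1, Hnrnpab and Utp6 had -0.759 and -0.931, and Utp6 and Nhp2 had 0.742 and 0.706. Hnrnph1 and Sart3 in that set had 0.737 and 0.563. None of these passed after adjustment under either scaling.

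With TMM scaling, the levels of Hnrnpab and Sart3 followed the number of reads of the clone in both sets. In Chen2008-1, Hnrnpab fell with log10 reads at r = -0.924 (rho -0.976, exact permutation p = 4.96e-05 and 3.97e-04, adjusted 5.95e-04 and 0.00476 over 12 relations), and without the 2 clones farthest from the median depth r was -0.992. In Chen2008-25 it had r = -0.938 (rho -0.886, exact permutation p = 0.0153 and 0.0333, adjusted 0.0367 and 0.0667) and r = -0.736 without 2 clones. Sart3 had r = -0.841 and -0.974 in the 2 sets (exact permutation adjusted p = 0.0251 and 0.0222), which became -0.163 and -0.476 with library totals. Hnrnpab kept r = -0.921 and -0.918 with library totals (exact permutation adjusted p = 5.95e-04 and 0.0625).

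Clk4 rose with depth in Chen2008-25 (r = 0.952, rho 0.886, exact permutation p = 0.00556 and 0.0333, adjusted 0.0222 and 0.0667), and not in Chen2008-1 (r = -0.108, exact permutation p = 0.782). In Chen2008-25 the r of Clk4 was 0.954 with library totals (exact permutation adjusted p = 0.0333). Utp6 in Chen2008-1 had r = 0.722 with log10 reads (rho 0.810, exact permutation p = 0.0398 and 0.0218, adjusted 0.0797 and 0.0653), and 0.509 without the 2 clones farthest from the median depth. With library totals its r was 0.871 (exact permutation adjusted p = 0.0159), and in Chen2008-25 it was 0.0110 with TMM scaling (exact permutation p = 0.982). With log10 reads as a covariate, an alternative added after the data were seen, the difference between sets was 0.74 in Hnrnph1, 0.62 in Clk4 and 0.71 in Utp6. The same fit called Hnrnpab lower in Chen2008-25 (log2 -0.13, SE 0.053, edgeR adjusted p = 0.0367), where the fit without depth did not, and Sart3 at -0.13 (SE 0.034, edgeR adjusted p = 0.00244). What makes a level follow depth was not tested.

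**Figure D4:**
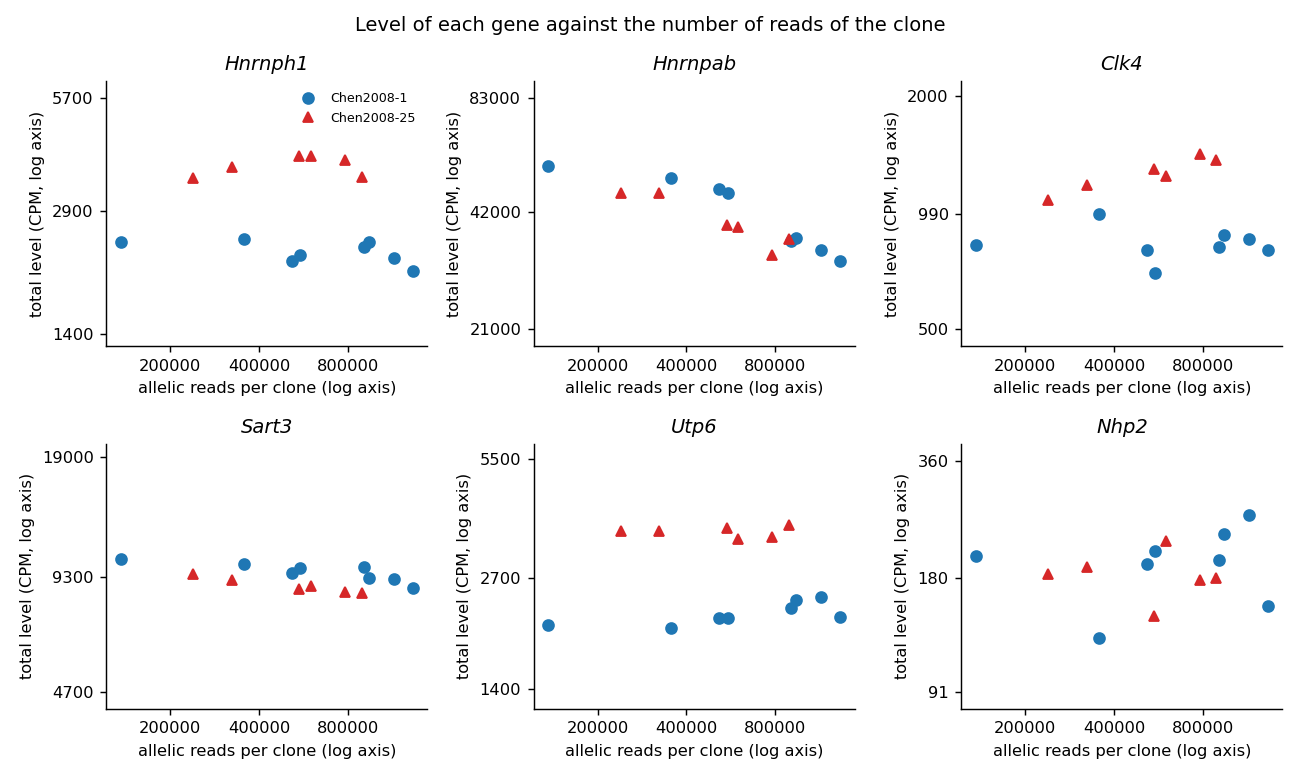
Total level of each gene in CPM against the allelic reads of the clone, both on log axes, with circles for Chen2008-1 and triangles for Chen2008-25. Hnrnpab declines with depth in both sets, and the separation of the sets in Hnrnph1, Clk4 and Utp6 is seen across the depths that both sets cover.

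By annotation order, 14 panel genes run along chromosome 11 from Hnrnph1 through Clk4 and Hnrnpab to Nhp2, and 12 of them were tested. Between Hnrnph1 and Clk4, the zinc-finger genes Zfp354c (1.09), Zfp454 (0.78), Zfp2 (0.41) and Zfp354a (0.95) and the gene BC049762 (0.89) were higher in Chen2008-25 by the log2 differences given, Rufy1 was lower (-0.33), and Zfp879 did not pass (0.15). Adamts2 and Col23a1 had too few reads to be tested. Zfp354a and BC049762 had medians of 25 and 9 reads per clone. After Clk4, neither Agxt2l2 (0.067), Hnrnpab nor Nhp2 passed the test. Of the 8 genes of this run other than the members, 5 were called higher and 1 lower, and of all 100 chromosome 11 genes tested 33 were higher and 38 lower.

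The next panel genes beyond the run were lower past Nhp2, where Rmnd5b gave -0.44 and N4bp3 -0.48, while before Hnrnph1 Canx was higher (0.29) and Maml1 lower (-0.31). Utp6 lies elsewhere on chromosome 11, between Rab11fip4 (1.03, SE 0.11) and Suz12 (1.26, SE 0.20), which were both higher in Chen2008-25, and Crlf3 follows with 0.30, while AU040972, before Rab11fip4, did not pass (0.16, SE 0.31, edgeR adjusted p = 0.663). The panel neighbours of Sart3, Ficd (0.00082) and Iscu (0.100), did not pass, and Cmklr1 fell by 2.39 (SE 0.21, edgeR adjusted p = 2.91e-08), and Selplg fell by 2.21 (SE 0.41, edgeR adjusted p = 1.48e-04, median of 12 reads per clone). Suz12 encodes a subunit of the Polycomb repressive complex that methylates histone H3, and Canx encodes the chaperone calnexin.

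Other measured genes of RNA processing and of ribosome assembly were called at about the rate of the panel. The hnRNP and splicing list of 127 genes also holds export, cleavage and polyadenylation, and tRNA-binding factors, and 10 of its genes were in the panel. Of the 6 that are not members 1 was called higher and 3 lower, beside 29.5% higher and 34.4% lower over all genes tested. Hnrnpa1, a further hnRNP, went from 203 ± 38.0 CPM (SD, n = 8) to 294 ± 28.4 CPM (SD, n = 6), 0.56 on the log2 scale (SE 0.13, edgeR adjusted p = 9.13e-04). Lower were Srsf4, a serine- and arginine-rich splicing factor (-0.40, SE 0.050), Alyref, an mRNA export adaptor (-0.33, SE 0.083), and Trnau1ap, which binds the selenocysteine tRNA (-0.65, SE 0.059). The cleavage and polyadenylation genes Cpsf1 (0.17, SE 0.25) and Cstf3 (0.032, SE 0.080) did not pass.

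Of a list of 136 ribosome-assembly genes, 9 were in the panel, and of the 7 that are not members 2 were called higher and 2 lower, also near the 29.5% and 34.4% of all genes tested. Ncl, which encodes nucleolin, a major nucleolar RNA-binding protein, went from 2011 ± 262 CPM (SD, n = 8) to 3775 ± 221 CPM (SD, n = 6), 0.91 on the log2 scale (SE 0.077, edgeR adjusted p = 1.74e-08). Npm1, for nucleophosmin, was higher by 0.26 (SE 0.095, edgeR adjusted p = 0.0203). Ddx47, an RNA helicase of pre-ribosomes, was lower (-0.42, SE 0.053), as was Nat10, which acetylates cytidines in ribosomal RNA (-0.19, SE 0.045). Bop1 (-0.11), Rrp7a (0.34) and Exosc4 (-0.042) did not pass. The medians of the non-members were -0.15 for the hnRNP and splicing list and -0.042 for the ribosome assembly list. The median over all genes tested was -0.0065, so the lists did not move one way.

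**Figure D5:**
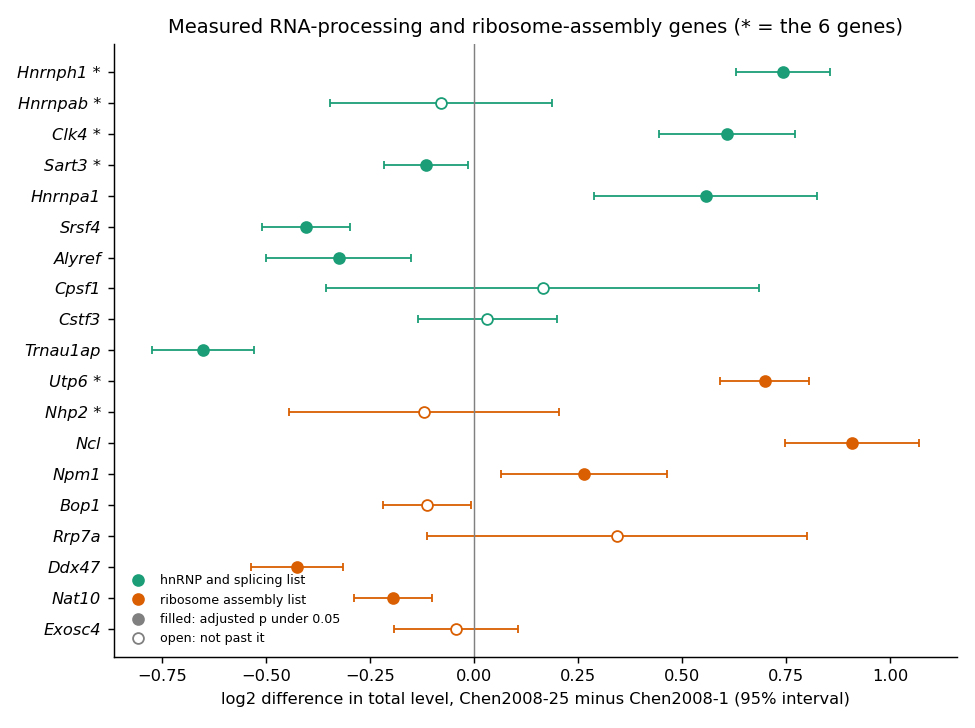
Log2 difference in total level of Chen2008-25 minus Chen2008-1, with 95% intervals, for the 19 measured genes of the hnRNP and splicing list and of the ribosome assembly list, members marked by an asterisk. Filled symbols passed the threshold, and they lie on both sides of 0 in each list, from -0.65 in Trnau1ap to 0.91 in Ncl.

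The panel genes most like each member were ranked by the Pearson r of clone deviations from the set means over 14 clones, which is a description, since all values share the clones and their depth. Hnrnpab was followed most closely by Rpl8 (r = 0.975), a ribosomal protein gene, by Trim28 (0.968), a co-repressor gene, and by Agxt2l2 (0.939), its overlapping neighbour. Trim28 (0.918), Rpl8 (0.857) and Hnrnpab (0.849) were also the nearest to Sart3. For Clk4 the nearest were Sar1b (0.863), which encodes a GTPase of secretory vesicles, Npff (0.773) and Arl8b (0.727).

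Hnrnph1 had linc1423 (0.800), Tsix (0.787) and Hnrnpa1 (0.748) as its nearest genes, and Utp6 had Eef1d (0.740), Sirt7 (0.713) and Npm1 (0.641). Those of Nhp2 were linc1460 (0.737), Cyb5r3 (0.695) and Dnajc8 (0.690), where linc1460 had a median of 12 reads per clone. The median absolute r over all panel genes lay between 0.212 for Nhp2 and 0.259 for Clk4.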

How the data were processed

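The deposited count tables hold whole-number allelic read counts of 472 panel rows per clone, with no normalization, with 1 column for each allele, per the file headers. The genotype table holds text of another kind (Het or KO with signs), per the file headers. The submitters' processing notes name mm9 as the build, and aligner, allele assignment and counting tool are not stated in any source used here. A row identical to another was left out, and alleles were summed for total levels.

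Tests used edgeR 4.0.16 (quasi-likelihood, TMM) in R 4.3.3 on genes with a mean of at least 10 reads per clone, with Benjamini-Hochberg adjustment over all genes tested and a threshold of 0.05. Allelic ratios were tested on both columns with a term for each clone. Alternatives used DESeq2 1.42.0, limma 3.58.1 and settings named in the closing section. The code was tested on simulated data. CPM precision is limited by 104 to 44271 reads per clone for members other than Nhp2. Named genes were the 6 members, listed pathway genes past the threshold, annotated neighbours (up to 2 on each side) and the 3 panel genes most like each member. Neighbour order and promoters came from RefSeq tables (GRCm38.p6) and overlaps from GENCODE, not from the build of the counts. Members, lists and tests were chosen with earlier results of these data known.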

Additional observations from a re-analysis of the deposited data

Results flagged for a closer look

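Clk4 in clone H7 stood apart within Chen2008-1, since its 129 copy was at 665 CPM (664.9) while the other 7 clones lay between 490 and 565 CPM. Among the +/- clones alone the others lay between 507 and 531 CPM. The CAST copy of Clk4 in H7 was at 326 CPM, inside the range of the set, and the clone had 331 Clk4 reads.

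Nhp2 had a 129 share of 80.8% in clone D10, where the other clones of the set lay between 38.9% and 50%. The D10 share rests on 26 reads in the clone of least depth. Its 95% Wilson interval was 62.1% to 91.5%, with each read taken as independent. Reads are not independent molecules here, so this interval understates the counting error. Without D10 the Nhp2 ratio of 129 to CAST in Chen2008-1 was -0.39 on the log2 scale (edgeR adjusted p = 0.00655), against -0.29 (adjusted p = 0.0951) with all clones. These 2 clones came from 96 groups of values tested with Dixon's criterion, which gave 3 hits, and chance flags about 1 in 20 groups.

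The ratio of 129 to CAST reads of Sart3 differed between the clone sets by 0.13 on the log2 scale (SE 0.036), by the interaction of allele and set in edgeR (adjusted p = 0.0198). That comparison called 12.1% of 448 genes. The difference did not pass without E6 (edgeR adjusted p = 0.0580). With limma it did not pass at pseudocounts of 1 or 5 either (limma adjusted p = 0.0776 and 0.0803).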

How the results depend on the processing

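Of 1410 recomputed values, 1320 were classed as unchanged. A tested difference or r had to keep its direction and its side of the threshold. A count of called genes or pairs had to stay similar in size, and an r without a p had to keep its sign. Hnrnph1, Clk4 and Utp6 passed in total level between the sets under all alternatives run, clones left out included. Over the 9 alternatives other than leaving out 1 clone, they ran from 0.73 to 0.78, 0.60 to 0.65 and 0.69 to 0.73 on the log2 scale. Sart3 in total level was between -0.14 and -0.083 with 1 clone left out (adjusted p from 0.0243 to 0.162, past the threshold only without D3, G2 or H4), and it did not pass with DESeq2 size factors (-0.083), library totals (-0.078), DESeq2 (-0.082) or only the +/- and KO clones (-0.11). The cause was not tested for any of these changes. With at least 100 reads per clone the Clk4 ratio difference passed (-0.34, adjusted p = 0.0484), and with counts halved for mates the Nhp2 ratio in Chen2008-1 passed (-0.33, adjusted p = 0.0214).

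Changes of sign were seen only in values that had not passed. The 129 level of Nhp2 between the sets was 0.030 with DESeq2 size factors, 0.028 with library totals, 0.026 with DESeq2 and 0.045 with the +/- and KO clones only. Under the first 3 of these settings, Hnrnph1 of -/+ against +/- clones was -0.00067, -0.0086 and -0.0048, and Sart3 of E6 against KO clones was -0.012, -0.014 and -0.011 (-0.021 with library sizes without Trim28 and Hnrnpab, added after the data were seen). Ratio differences with limma were -0.0027 and -0.0023 for Hnrnph1 (pseudocounts of 1 and 5), and the Nhp2 ratio in Chen2008-25 was 0.00096.

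With 1 clone left out, the values that changed sign ranged as follows. Between the sets, 129 Nhp2 ran from -0.13 to 0.089 and CAST Hnrnpab from -0.12 to 0.0098, and the ratio differences ran from -0.010 to 0.034 in Hnrnph1 and from -0.014 to 0.039 in Utp6. KO against +/- clones gave -0.11 to 0.037 in Hnrnpab and -0.18 to 0.00050 in Nhp2. For -/+ against +/- clones the ranges were -0.051 to 0.047 in Hnrnph1, -0.31 to 0.37 in Hnrnpab, -0.047 to 0.079 in Clk4, -0.050 to 0.078 in Sart3 and -0.14 to 0.15 in Utp6. For E6 against KO clones they were -0.082 to 0.00024 in Clk4 and -0.024 to 0.026 in Sart3. The Nhp2 ratio in Chen2008-25 ran from -0.12 to 0.083, and the Clk4 ratio by deleted chromosome from -0.39 to 0.012, a comparison whose calls ran from 2 (without D2) to 4. No paired analysis was possible because the labels number no replicates, only clones, and accession order pairs nothing. This concerns pairing of clones between the sets. In the tests of allelic ratios the copies of each clone were paired, by a term for each clone. Nhp2 had the fewest reads of the members in every clone, and how far depth limited its values was not tested.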
